A study of Mus musculus with 8 samples.

Results

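Newborn mouse skin that had lost the retinoblastoma protein pRb was compared with control skin on 4 microarrays, out of 8 in the series. The members were chosen by array title: 2 arrays of genotype pRb-/-;p53+/+, called pRb-null here, and 2 arrays titled Control. Each array was hybridized with whole-skin RNA pooled from 3 newborn FVB animals of 1 genotype, and FVB is an inbred strain. The other 4 arrays, 2 of skin without p53 (p53-null) and 2 of skin without either protein (double-null), entered the fit to give its estimate of the spread and served for 1 comparison at the end. The series title places the inactivation of the Rb1 gene in stratified epithelia, as a somatic event. The labels name neither the promoter that drove it nor the alleles that the control animals carried. Whole skin also holds dermis and can include fat and muscle, which the title does not name as targets. Whether both arrays of 1 genotype came from different pools is unstated as well, so a p-value reflects array-to-array spread only, and that spread may be technical.

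pRb binds the E2F transcription factors and holds back the genes they activate until cyclin-dependent kinases phosphorylate it late in G1. Those genes encode much of the machinery of S phase, such as the MCM helicase, the replication clamp and ribonucleotide reductase. In epidermis, pRb and its relatives p107 (Rbl1) and p130 (Rbl2) are known for coupling the exit of keratinocytes from the cell cycle to their differentiation. Newborn skin also builds its first hair coat, and whole-skin RNA can carry transcripts of the fat layer and of the thin muscle sheet beneath the dermis.

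Each deposited value is a score: the 8 values of a probe set were centred to mean 0 and scaled to SD 1. A difference is therefore given in units of the probe set's own SD over all 4 genotypes, ± the standard error (SE) of the fit. Neither a level nor a fold change can be given, and the presence of a cell type cannot be checked from its markers. A large difference marks 2 groups that separate cleanly compared with the other arrays. Transcripts whose other genotypes lie far away give small differences even where both groups are tight.

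The 4 arrays correlated weakly across probe sets. The Pearson r over all probe sets was 0.132 between the control arrays and 0.118 between the pRb-null arrays, and the highest r between different genotypes was 0.0935. The array's own mouse control probe sets, 16 in number and directed at transcripts such as Gapdh and beta-actin, had mean scores of −1.02 and −1.14 on the control arrays, 0.756 and 0.417 on the pRb-null arrays and 0.158 to 0.364 on the other 4. At an unadjusted p under 0.05, 11 of these 16 scored higher in pRb-null, and 0 lower. Of the 41 bacterial control probe sets, 7 scored higher and 0 lower, with mean scores of −0.720 and −0.180 on the control arrays and 0.174 and −0.0554 on the pRb-null arrays. The control arrays thus stood low for these probe sets, and the part of this offset in the results below was not tested. Setting the mouse control mean to 0 on each array moved every difference down by 1.67 and the median of all probe sets from 0.0651 to −1.60, so that each positive difference smaller than 1.67 changed sign under that scaling. The differences below are those of the scores as deposited and are read against the median of all probe sets.

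Over the whole transcriptome no single probe set separated pRb-null from control after adjustment. Of 22626 probe sets, 0 were called higher (0.0% as background) and 0 lower (0.0%) at a Benjamini-Hochberg adjusted p under 0.05 in the unmoderated limma fit, where the smallest adjusted p was 0.0626. Before adjustment, at p under 0.05, 1443 scored higher (6.38% as background) and 955 lower (4.22%) in pRb-null. limma's moderated test gave 1497 higher and 961 lower before adjustment; its count after adjustment was 0, but it made no call on simulated data either, so that 0 gives no support. Scores of the pairs did not overlap, with both pRb-null arrays above both controls, for 5123 probe sets (22.6%), and with both below for 4158 (18.4%). Of the probe sets below that unadjusted threshold, 60.2% scored higher; the share was 53.1% with the array medians set to 0 and 0.546% with the mouse control probe sets subtracted. Since no probe set passed, every gene below is described by its scores, and "scored higher" or "scored lower" without a further word refers to an unadjusted p under 0.05.

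The E2F recognition sequence was present in many promoters of the replication genes described next, and 3 of them are shown because their genes scored higher in pRb-null. The window printed is the 160 bases before the transcription start in the RefSeq promoter table of build GRCm38.p6, on the strand of the gene, with each E2F octamer in capitals. The octamers searched were TTTCCCGC, TTTCGCGC, TTTGCCGC and TTTGGCGC on both strands, and overlapping matches run together.
Mcm5 (chr8:75109349-75109508, plus strand): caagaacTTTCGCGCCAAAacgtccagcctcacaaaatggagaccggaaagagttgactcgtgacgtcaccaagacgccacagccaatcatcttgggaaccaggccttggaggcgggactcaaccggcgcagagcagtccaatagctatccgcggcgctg
Mcm6 (chr1:128359706-128359865, minus strand): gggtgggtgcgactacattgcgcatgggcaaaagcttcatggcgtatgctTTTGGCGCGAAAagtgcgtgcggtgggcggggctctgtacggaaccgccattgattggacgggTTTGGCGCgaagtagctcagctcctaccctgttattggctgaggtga
Rfc3 (chr5:151651209-151651368, minus strand): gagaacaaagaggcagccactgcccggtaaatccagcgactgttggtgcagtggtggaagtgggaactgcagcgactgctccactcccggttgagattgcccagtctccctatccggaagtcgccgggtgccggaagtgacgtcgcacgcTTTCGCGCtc
In Mcm5 the 2 overlapping octamers begin 153 and 149 bases before the start, in Mcm6 they begin 110, 106 and 47 bases before it, and in Rfc3 the single octamer begins 10 bases before it. Of the 17 genes of helicase loading and licensing with a promoter in the table, 8 held an octamer within its window of 300 bases, and of 23 replication fork genes 8 did. Over both lists 16 of 40 genes held one, against 2.6% of all 27025 genes in the table. Of the fork genes that scored higher, Rfc3, Pole2 and Uhrf1 held an octamer, while Rfc1, Pcna, Prim1, Rpa1 and Asf1b did not. The helicase subunit genes that scored higher, Mcm3, Mcm5 and Mcm6, each held an octamer. A match describes the letters of a sequence and says nothing of binding. Genes with an octamer as a whole stood little apart: of their 694 probe sets, 8.36% scored higher and 2.88% lower, with a median difference of 0.147, and of the 15614 probe sets of genes without one, 6.49% scored higher and 4.28% lower, with a median of 0.0592.

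Rb1 itself was measured by 1 probe set, in whole-skin RNA, where fewer cells of a type and less RNA per cell cannot be told apart. Its scores were 1.20 and 0.80 in control and −0.71 and 0.44 in pRb-null. Both pRb-null arrays were below both controls, but the spread between the 2 pRb-null arrays was large, and the difference of −1.14 ± 0.65 did not pass (adjusted p = 0.627). Where the probes of this set lie relative to the deletion is unknown here. The related pocket protein genes did not separate: Rbl1 differed by 1.05 ± 1.07 and −0.47 ± 1.12 on its 2 probe sets and Rbl2 by −0.42 ± 0.93 and −0.15 ± 0.88.

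Among the partners of pRb, the dimerization partner gene Tfdp1 and the activator E2f1 scored higher in pRb-null. Tfdp1, whose product pairs with the E2F proteins to bind DNA, scored −0.46 and 0.24 in control and 1.09 and 1.67 in pRb-null, a difference of 1.49 ± 0.33. These were the 2 highest of its 8 scores. E2f1 scored −1.24 and −0.17 in control against 1.72 and 1.09 in pRb-null (2.11 ± 0.63) on 1 probe set, while on its other probe set the groups overlapped and differed by −0.29 ± 1.14. The activator E2f3 had a difference of 1.33 ± 0.69 without overlap, and the repressor E2f6 one of −1.34 ± 0.80, neither below the threshold. In the whole list of E2F and DP genes, the median difference was 0.76 against 0.0651 for all probe sets. There 2 of 9 probe sets scored higher (22.2%, background 6.38%) and 0 lower. That count was 1 without control replicate 1, either pRb-null array or either double-null array, and 3 without control replicate 2.

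A minority of replication fork probe sets scored higher in pRb-null and none lower, and those for helicase loading and licensing went both ways. Of 42 probe sets for 26 fork genes, 9 scored higher (21.4%, background 6.38%) and 0 lower, 35 differences were above 0 (background 52.3%), and the median difference was 1.04. The pairs did not overlap in the upward direction for 19 of them (45.2%, background 22.6%) and in the downward direction for 2.

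Among fork genes the clamp loader had the probe set of smallest p. Rfc1, its large subunit, scored −1.36 and −0.91 in control and 1.32 and 1.12 in pRb-null, a difference of 2.35 ± 0.19 on 1 probe set (adjusted p = 0.146), and 1.54 ± 0.97 and 1.63 ± 0.87 on the other 2. Rfc3, a small subunit of the same complex, scored higher on both of its probe sets, by 1.83 ± 0.38 and 1.26 ± 0.43. The first gave −0.91 and −1.85 in control and 0.49 and 0.42 in pRb-null.

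Single probe sets for the clamp and for proteins that start and extend strands also scored higher. Pcna, the sliding clamp, scored −1.30 and −1.50 in control against 0.86 and 0.11 in pRb-null (1.89 ± 0.40). The control scores were the lowest of the 8 arrays. Prim1, the catalytic subunit of primase, scored −1.50 and −1.05 against 1.26 and 0.80 (2.31 ± 0.50), and its second probe set differed by 1.13 ± 0.85. Rpa1, the large subunit of the single-strand binding complex, differed by 1.47 ± 0.29 and 1.32 ± 0.91. Pole2, a subunit of DNA polymerase epsilon, scored −0.99 and 0.41 against 1.13 and 1.71 (1.71 ± 0.60). Not all fork genes shared this pattern: Rpa3, the smallest subunit of the Rpa1 complex, had a difference of −1.66 ± 0.72 without overlap, and Pold3, a subunit of polymerase delta, had differences of −1.62 ± 0.84 and 0.41 ± 0.42.

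The remaining members of the list that scored higher were Uhrf1 and Asf1b. Uhrf1, which brings the maintenance DNA methyltransferase to newly made strands, scored −0.56 and −0.65 in control and 1.09 and 1.504 in pRb-null (1.90 ± 0.55), with 0.33 ± 0.62 on a second probe set. Asf1b, a histone chaperone, scored −1.92 and −0.77 against 1.20 and 0.02 (1.96 ± 0.58). Other members with roles in chromatin or DNA methylation did not pass: Chaf1b, a subunit of a histone chaperone complex, differed by 1.54 ± 0.90, and Dnmt1, the maintenance methyltransferase, by 1.01 ± 0.66 and 1.30 ± 0.86. The count of fork probe sets that scored higher depended on single arrays. It was 4 without control replicate 1, 5 without pRb-null replicate 1 and 5 without either p53-null array, and 1 scored lower when either pRb-null array was left out.

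Among 42 probe sets for 21 genes of helicase loading and licensing, 3 scored higher and 3 lower, a share of 7.14% each way that lies near the background of 6.38% higher and 4.22% lower. The median difference was 0.78, and 17 pairs were separated upward (40.5%, background 22.6%) against 6 downward (14.3%, background 18.4%). The 3 probe sets that scored higher belonged to 3 helicase subunit genes, while the 4 probe sets of the subunit gene Mcm7 did not pass. Mcm6 scored −1.41 and −1.64 in control and 0.54 and 0.35 in pRb-null (1.97 ± 0.27), with 0.74 ± 1.26 on its second probe set. Mcm5 scored −0.43 and −0.92 against 1.94 and 0.90 (2.09 ± 0.51), and Mcm3 differed by 2.28 ± 0.65 on 1 of its 5 probe sets. Its other 4 probe sets differed by −0.13 to 1.91 and did not pass.

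The 3 members that scored lower act around the helicase. Dbf4, the regulatory subunit of the kinase that fires origins, scored 1.10 and 1.66 in control against −0.13 and −1.55 in pRb-null (−2.22 ± 0.60), and −0.56 ± 1.24 on a second probe set. Mcm10, which joins the helicase at origin opening, differed by −1.48 ± 0.50 on 1 probe set and 0.76 ± 1.01 on the other. Orc3, an origin recognition subunit, differed by −1.64 ± 0.40, −0.67 ± 0.37 and 1.09 ± 1.08 on its 3 probe sets. Its promoter also holds an E2F octamer, as do those of Cdc6, Cdt1, Mcm7 and Orc1, which did not score higher or lower. Without control replicate 2 the 3 lower scores dropped out of the count, and without pRb-null replicate 1 there were 1 higher and 2 lower, without pRb-null replicate 2 there were 4 and 1, and limma's moderated test gave 5 and 1.

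**Figure D1:**
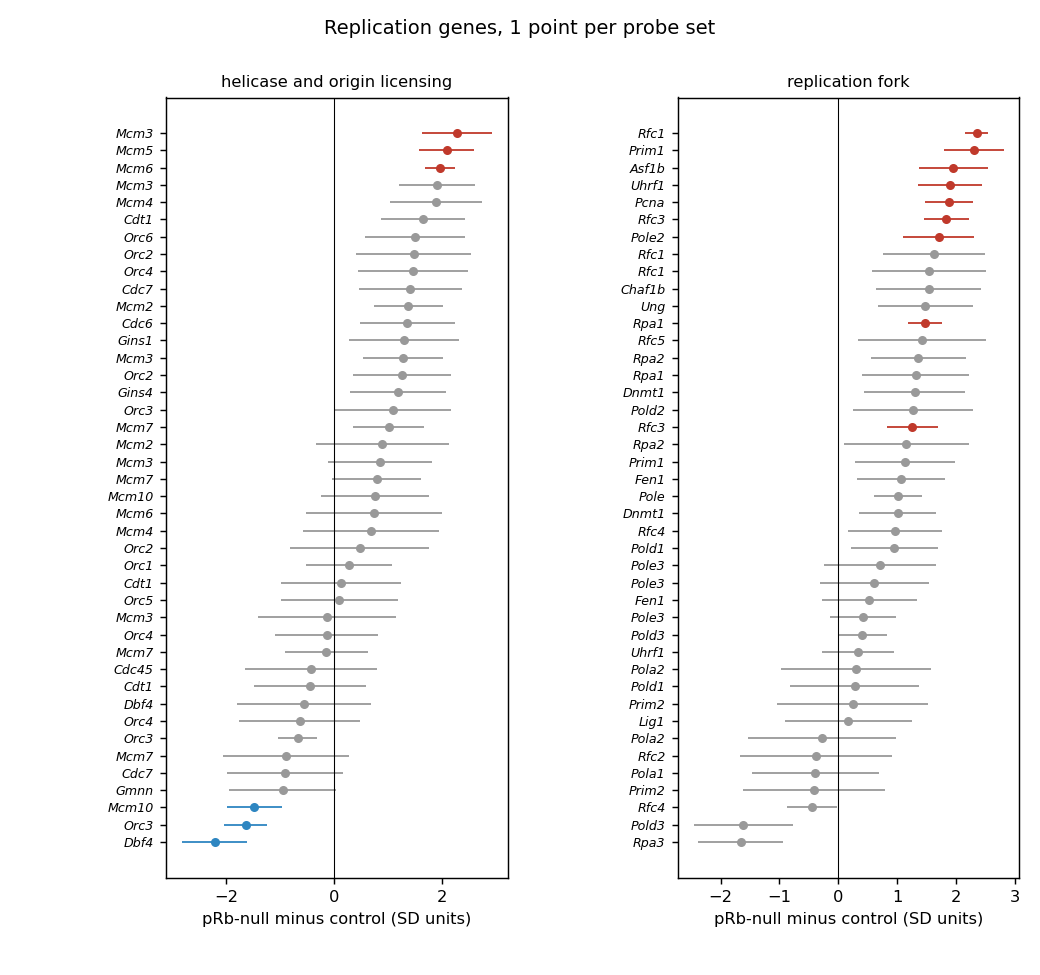
Difference between pRb-null and control in SD units, ± SE, for each probe set of the helicase and licensing list (left) and of the replication fork list (right), with probe sets at an unadjusted p under 0.05 in red (higher) or blue (lower) and the others in grey. In the fork list 9 of 42 probe sets are red and 0 blue, and in the licensing list 3 are red and 3 blue.

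Supply of deoxynucleotides and mitosis gave smaller shares. Rrm1, the large subunit of ribonucleotide reductase, scored −1.34 and −1.70 in control and 1.04 and 0.51 in pRb-null (2.30 ± 0.29), and 1.30 ± 0.54 on its other probe set. In its list 2 of 25 probe sets scored higher (8.0%, background 6.38%) and 1 lower (4.0%, background 4.22%). The latter was for Ctps, the enzyme that makes CTP (−1.10 ± 0.39). Of 89 mitosis probe sets, 10 scored higher (11.2%) and 3 lower (3.37%), with a median of 0.52. In this list 33 pairs were separated upward (37.1%, background 22.6%). Kif11, a spindle kinesin, differed by 1.82 ± 0.32 on 1 probe set and by 1.23 ± 1.10 and 0.28 ± 0.95 on the others. Incenp, a subunit of the chromosomal passenger complex, differed by 2.15 ± 0.40 on 1 of 3, with 0.32 ± 0.29 and −0.02 ± 1.03 on the rest. Cdc25c, a phosphatase that promotes entry into mitosis, differed by 2.34 ± 0.56. Pttg1, the securin that guards separase, went the other way, from −0.20 and −0.30 in control to −1.25 and −1.54 in pRb-null on 1 probe set, while −0.34 ± 1.15 and 0.33 ± 1.31 were the differences on its other 2. The mitosis count was 5 higher without control replicate 1, and 6 higher and 1 lower without either double-null array.

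Few probe sets of the genes upstream of pRb passed, although most differences in the G1 cyclin and kinase list were above 0. Of its 20 probe sets, 1 scored higher (5.0%, background 6.38%) and 0 lower. Differences were above 0 for 15 (background 52.3%), and the median was 0.35. The array medians were −0.11 and 0.266 in control and 0.626 and 0.567 in pRb-null. Of 9 kinase inhibitor probe sets, 1 scored higher and 1 lower (11.1% each, background 6.38% and 4.22%), with a median of −0.45. Ccnd2, encoding the G1 cyclin D2, scored −1.26 and −1.09 in control and 1.30 and 0.58 in pRb-null (2.12 ± 0.28) on 1 probe set, but its other 6 probe sets ranged from −0.91 to 1.35 and did not pass the unadjusted threshold. Cdkn1b, the kinase inhibitor p27, scored 1.02 and 1.08 against −1.49 and −0.41 (−2.002 ± 0.48), and its second probe set differed by 0.69 ± 1.17. The 2 probe sets of Cdkn1a, the inhibitor p21, differed in opposite directions (0.68 ± 0.21 and −0.59 ± 0.29). For 37 probe sets of p53 target genes, 3 scored higher (8.11%, background 6.38%) and 1 lower (2.7%, background 4.22%), with a median of 0.35.

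Of the 40 lists examined, the largest share of higher scores was in skeletal muscle genes of the fast-fibre type. Of 24 probe sets for 17 fast contractile genes, 12 scored higher (background 6.38%) and 0 lower, 18 pairs were separated upward (75.0%, background 22.6%), and the median difference was 1.49. Muscle lies beneath the skin, and how deep the dissection went is unknown here, so its part in these and the other lists' scores was not tested.

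The fast list covers calcium handling and the contractile filaments. Atp2a1, the calcium pump of fast fibres, scored −1.05 and −1.08 in control and 1.86 and 1.02 in pRb-null (2.50 ± 0.33), while the other 4 arrays lay between −0.46 and −0.04. Myl1, a fast myosin light chain, scored −1.42 and −1.69 against 0.46 and 0.53 (2.05 ± 0.35). Myh4, the myosin heavy chain of the fastest fibres, scored −0.57 and 0.04 against 1.71 and 1.36 (1.80 ± 0.36), above all other arrays. Actn3, an actinin of fast fibres, differed by 1.64 ± 0.28, Casq1, the calcium store protein of the same fibres, by 1.76 ± 0.35, and Acta1, skeletal actin, by 1.36 ± 0.34. Myh1, a further fast heavy chain, had 3 probe sets with 0.89 ± 0.11, 0.91 ± 0.51 and −1.28 ± 0.73.

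Some muscle genes of energy metabolism and structure also scored higher. Of 41 such probe sets, 11 scored higher (26.8%, background 6.38%) and 0 lower, with a median of 1.03. The pairs were separated upward for 25 (61.0%, background 22.6%). Ckm, the muscle creatine kinase, scored −1.50 and −1.18 in control and 1.36 and 1.19 in pRb-null (2.62 ± 0.19, adjusted p = 0.133), and its other 4 arrays lay between −0.11 and 0.19. Eno3, the muscle enolase, scored −0.89 and −0.70 against 1.19 and 1.47 (2.12 ± 0.47). Pygm, muscle glycogen phosphorylase, differed by 2.17 ± 0.49 and Cacna1s, the voltage sensor of the muscle membrane, by 2.07 ± 0.48. For each of these 4 genes the pRb-null arrays were the 2 highest of the 8.

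Slow-fibre and cardiac genes split. Of 27 probe sets, 2 scored higher (7.41%, background 6.38%) and 6 lower (22.2%, background 4.22%), although the median was 0.75. The troponin subunits Tnnc1, Tnni1 and Tnnt1 all scored lower. Tnnc1, troponin C of slow muscle and heart, scored 0.20 and 0.28 in control and −1.14 and −1.24 in pRb-null (−1.43 ± 0.05, adjusted p = 0.0626). Its p53-null scores were 1.39 and 1.33, so the control arrays lay in the middle of its range. Tnni1, slow troponin I, scored 0.05 and 0.00 against −1.15 and −1.37 (−1.29 ± 0.16), and Tnnt1, slow troponin T, 0.11 and 0.81 against −0.52 and −0.67 (−1.05 ± 0.26).

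The developmental and cardiac isoforms Myh3 and Actc1 also scored lower. Myh3 belongs to a separate list of embryonic muscle genes and regulators, which did not share that direction. Of its 42 probe sets, 6 scored higher (14.3%, background 6.38%) and 1 lower (2.38%, background 4.22%), with a median of 0.37. Myh3, the embryonic myosin heavy chain, scored 0.34 and 0.64 in control and −1.06 and −0.84 in pRb-null (−1.44 ± 0.17). Actc1, cardiac actin, which newborn skeletal muscle also makes, scored −0.29 and −0.15 against −1.01 and −1.07 (−0.82 ± 0.12). Csrp3, a muscle LIM protein of slow fibres, differed by −0.98 ± 0.34. Atp2a2, the calcium pump of slow fibres and of most other cells, differed by −2.08 ± 0.34 on 1 probe set and by 0.56 to 0.83 on 3 others that did not pass.

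Other slow genes did not share that direction. The slow heavy chain Myh7 differed by 0.91 ± 0.62, the slow light chain Myl2 by 1.78 ± 0.72, the slow tropomyosin Tpm3 by 2.27 ± 0.58 on 1 of its 5 probe sets and 0.14 to 1.44 on the others, and the atrial heavy chain Myh6 by 1.79 ± 0.31 on 1 of 2. The fast counts were 7 without either pRb-null array. The metabolic counts were 4 without control replicate 1 or pRb-null replicate 1. The slow counts were 4 higher and 4 lower without pRb-null replicate 2, and 5 higher and 1 lower with limma's moderated test.

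**Figure D2:**
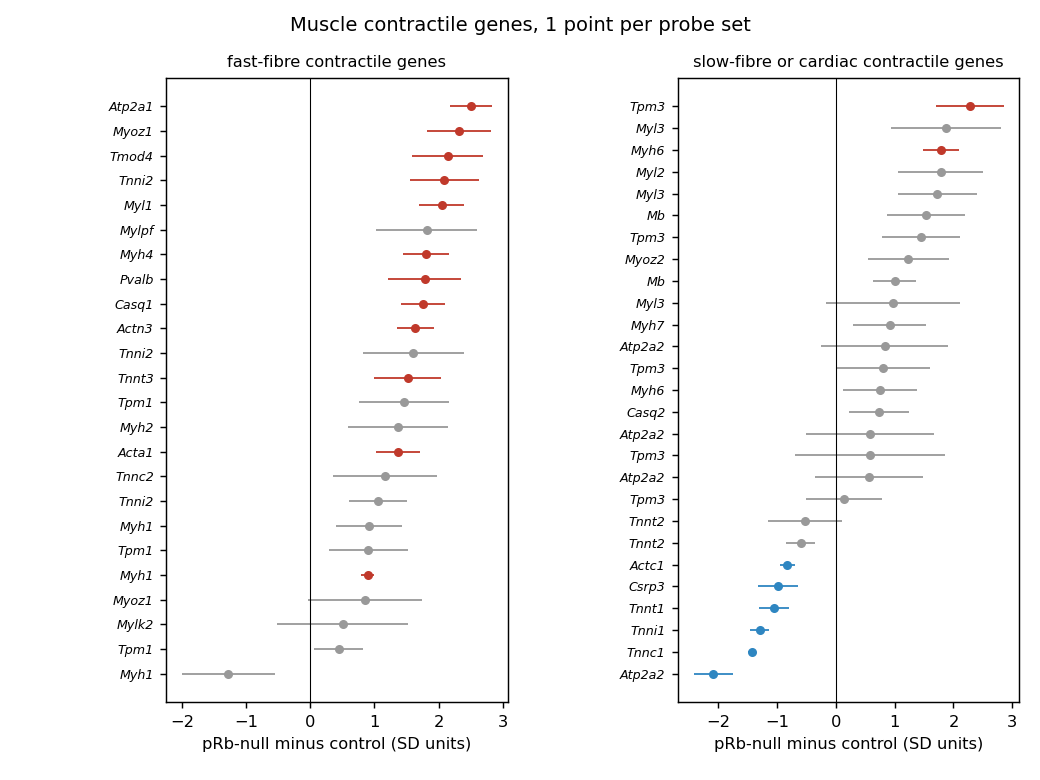
Difference between pRb-null and control in SD units, ± SE, for each probe set of the fast contractile list (left) and of the slow or cardiac contractile list (right), coloured red (higher) or blue (lower) at an unadjusted p under 0.05 and grey otherwise. In the fast list 12 of 24 are red and 0 blue, and in the slow list 2 of 27 are red and 6 blue, among them the troponins Tnnc1, Tnni1 and Tnnt1.

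More than the background share of white adipocyte probe sets scored higher in pRb-null, though most did not pass. Of 49 probe sets for 27 genes, 18 scored higher (36.7%, background 6.38%) and 0 lower. Upward, 27 pairs were separated (55.1%, background 22.6%), and the median was 0.79. Cidec, a coat protein of lipid droplets, scored −0.35 and −0.35 in control and 0.94 and 0.69 in pRb-null (1.17 ± 0.13). Lipe, the hormone-sensitive lipase, scored −0.44 and −0.49 against 0.32 and 0.77 (1.01 ± 0.16). Adipoq, the adipocyte hormone adiponectin, scored −0.19 and 0.02 against 0.74 and 1.09 (1.00 ± 0.18).

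The p53-null arrays, not the control arrays, had the lowest medians in this list. These were −1.05 and −0.963 in p53-null against −0.354 and −0.305 in control. Both control arrays were the lowest 2 of the 8 for 3 of the 49 probe sets, near the share over all probe sets (6.94%). In p53-null, Adipoq scored −1.39 and −1.56 and Cidec −1.45 and −1.28. Gpd1, which makes glycerol phosphate for triglyceride synthesis, scored −1.32 and −1.08 in control against 0.74 and 1.15 in pRb-null (2.15 ± 0.28), and was higher by 0.79 to 1.26 on its other 3 probe sets, 1 of them below the unadjusted threshold. Car3, a carbonic anhydrase abundant in fat and in slow muscle, scored higher on both of its probe sets, by 1.70 ± 0.20 and 1.10 ± 0.35. The count was 11 without control replicate 1, 10 without pRb-null replicate 1 and 5 with limma's moderated test. Markers of brown fat did not share the shift, with 1 of 17 higher and 1 lower (5.88% each, background 6.38% and 4.22%). The lower one was the uncoupling protein Ucp1 (−0.27 ± 0.09).

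Of the 40 lists examined, the largest share of lower scores was in a hair shaft family. Keratin-associated proteins cross-link the keratin filaments of the hair shaft. All 26 probe sets for 21 of their genes had differences below 0, from −2.19 to −0.12. Of these, 17 scored lower (65.4%, background 4.22%) and 0 higher, and 22 pairs were separated downward (84.6%, background 18.4%). The median was −0.75. These genes are near copies of each other and their probes may cross-hybridize, so the members are not independent readings and single members are uncertain.

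Their scores in pRb-null lay between control and the genotypes without p53. Krtap16-3 scored 1.20 and 1.27 in control, 0.56 and 0.60 in pRb-null and −0.93 to −0.89 on the other 4 arrays, a difference of −0.66 ± 0.03 (adjusted p = 0.0711), and −0.50 ± 0.06 on its second probe set. Krtap19-3 scored 1.43 and 1.25 in control and 0.39 and 0.44 in pRb-null (−0.93 ± 0.07). Krtap19-4 differed by −1.45 ± 0.15 and Krtap19-1 by −1.72 ± 0.21 and −0.31 ± 0.63 on its 2 probe sets. For 16 of the 26 probe sets both pRb-null scores fell below both controls and above all 4 arrays without p53, against 370 of all 22626 probe sets. The count that scored lower was 14 without control replicate 2, where 1 scored higher, and 4 with limma's moderated test.

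Keratins of the hair shaft and root sheath showed the same order with smaller differences. Of 25 probe sets, 8 scored lower and 1 higher, and 14 pairs were separated downward (56.0%), with a median of −0.33. Krt33b, a type I hair keratin, scored 1.35 and 1.13 in control and 0.52 and 0.18 in pRb-null (−0.89 ± 0.16). Krt34 scored 1.09 and 1.30 against 0.38 and 0.53 (−0.73 ± 0.14) and the type II hair keratin Krt86 differed by −0.72 ± 0.16. The root sheath keratins Krt25, Krt27, Krt71 and Krt72, named here after their values were seen, differed by −0.33 to −0.11 and did not pass. Krt36 and Krt84 had differences above 0 that did not pass either, 0.39 ± 0.27 and 0.71 ± 0.53. The member that scored higher was not a keratin: Dlx3, a homeobox regulator of the hair matrix, scored 0.02 and 0.52 in control and 1.29 and 1.28 in pRb-null (1.02 ± 0.23), with −0.69 ± 0.42 on its other probe set. The count of lower scores was 3 or 4 with any array of the comparison or either p53-null array left out, 5 after quantile normalization, 14 with the array medians set to 0 and 0 with limma's moderated test. The orphan receptor gene Gprc5d, known from the hair cortex, scored 1.09 and 1.15 against 0.70 and 0.69 (−0.42 ± 0.03).

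**Figure D3:**
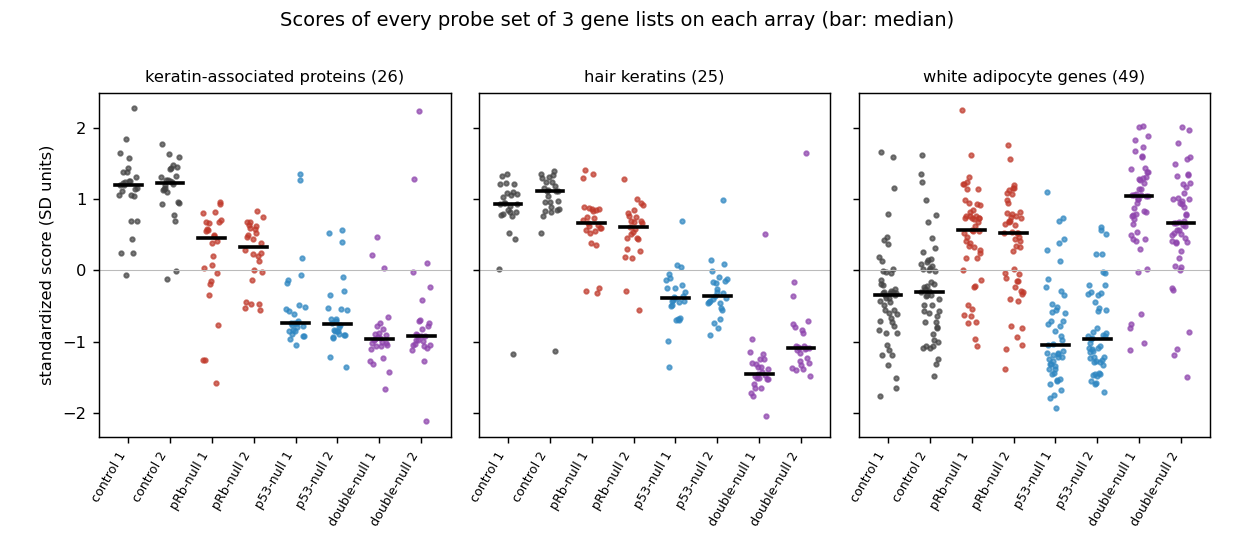
Standardized score of every probe set (1 point each) on each of the 8 arrays for keratin-associated proteins, hair keratins and white adipocyte genes, with the list median on each array as a bar. In both hair lists the pRb-null medians (0.450 and 0.330, 0.668 and 0.601) lie between those of control and p53-null, and in the fat list they lie at 0.564 and 0.517, above control at −0.354 and −0.305.

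Among 74 probe sets of follicle formation and its signals 5 scored higher (6.76%, background 6.38%) and 6 lower (8.11%, background 4.22%), and the median was 0.0203. Fzd6, a Wnt receptor that orients hair follicles, scored 1.64 and 1.58 in control and −0.53 and −0.54 in pRb-null (−2.15 ± 0.11, adjusted p = 0.0914), but 0.95 ± 0.87 on its second probe set. Edaradd, the adaptor of the ectodysplasin receptor, scored 1.06 and 0.79 against −0.58 and −0.38 (−1.40 ± 0.14). Shh, the ligand that drives growth of the follicle, scored −1.32 and −1.17 against 1.17 and 0.65 (2.16 ± 0.38), and Smo, its signal transducer, differed by −1.35 ± 0.29 and −0.59 ± 0.92 on its 2 probe sets.

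Some genes of basal keratinocytes, the dividing layer of the epidermis, scored higher, but the keratins that define the layer did not. Of 49 probe sets for 21 genes, 11 scored higher (22.4%, background 6.38%) and 0 lower, with a median of 0.67. The pairs were separated upward for 21 (42.9%, background 22.6%). With 1 probe set per gene the median was −0.0504. The basal keratins, named here as markers after their values were seen, did not pass: Krt5 differed by −0.68 ± 0.43, Krt15 by −0.31 ± 0.49 and Krt14 by −1.31 ± 0.75, 0.02 ± 0.70 and 0.42 ± 0.74. Egfr, the epidermal growth factor receptor, scored −0.40 and −0.56 in control and 1.41 and 1.77 in pRb-null (2.07 ± 0.21), and 0.69 ± 0.22 on a second that also scored higher. Its other 3 probe sets ranged from −1.34 to 1.33 and did not pass. Trp63, the master regulator of stratified epithelium, gave 2.38 ± 0.34, 2.17 ± 0.40 and −1.30 ± 0.57 on its 3 probe sets.

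Among further members of the list that scored higher on 1 probe set each were Cdh3, Cd44, Fgfr2 and Sox4. Cdh3, placental cadherin, scored 0.09 and 0.11 in control against 1.67 and 1.26 (1.36 ± 0.21). Cd44, a hyaluronan receptor, differed by 2.40 ± 0.21 and 0.30 ± 1.05 and Fgfr2 by 2.33 ± 0.36 and 0.77 ± 0.37. The transcription factor gene Sox4 scored −1.42 and −1.69 against 0.31 and 0.35 (1.89 ± 0.19) on 1 of 6 probe sets, the others ranging from −1.63 to 1.83. Lower scores appeared in 3 probe sets of the list without control replicate 1 and in 2 without either double-null array.

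Differentiated layers, junctions and stress keratins gave single genes. Of 36 suprabasal and cornified probe sets 7 scored higher (19.4%, background 6.38%) and 1 lower (2.78%, background 4.22%), with a median of 0.23. Rptn, an envelope precursor, scored −0.80 and −1.20 in control and 0.53 and 0.73 in pRb-null (1.63 ± 0.17), and 0.89 ± 0.47 and 0.05 ± 1.10 on 2 further probe sets. Sprr2d, a small proline-rich envelope protein, scored −1.002 and −1.30 against 0.63 and 0.47 (1.70 ± 0.20). Krt16, a keratin of wounded and hyperproliferative epidermis, scored −0.94 and −0.74 in control, 0.33 and 0.07 in pRb-null and 1.497 and 1.38 in double-null (1.04 ± 0.14 for pRb-null). Il1f9, an epidermal cytokine of the interleukin-1 family, scored −1.19 and −1.05 in control, −0.14 and 0.19 in pRb-null and 1.54 and 1.34 in double-null (1.14 ± 0.16). In the list of stress and wound genes 6 of 33 scored higher (18.2%, background 6.38%) and 0 lower. The count fell with any array of the comparison or either p53-null array left out, and was 0 with limma's moderated test.

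Desmosomal and gap junction probe sets scored higher in 5 of 30 (16.7%, background 6.38%) and lower in 2 (6.67%, background 4.22%). Dsc3, the desmocollin of the basal layers, scored −1.38 and −1.46 in control against 0.97 and 1.30 (2.55 ± 0.28). Gja1, connexin 43, differed by 2.57 ± 0.28 on 1 probe set, and its other 5 ranged from −1.94 to 0.32, of which the lowest scored lower. Such disagreement between probe sets of 1 gene was common, and a value from a single probe set is uncertain to that extent.

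A minority of ribosomal protein probe sets scored lower and none higher. Of 91 probe sets for 42 genes, 12 scored lower (13.2%, background 4.22%) and 0 higher. Downward, 36 pairs were separated (39.6%, background 18.4%), and the median was −0.63. Rpl37a scored 1.36 and 1.39 in control and −0.41 and −0.13 in pRb-null (−1.64 ± 0.15), against 0.18 ± 1.24 and −0.72 ± 0.90 on its other probe sets. Rpl39 differed by −2.20 ± 0.41 and Rps25 by −1.49 ± 0.33. The array medians of the list were 0.619 and 0.639 in control and 0.147 and 0.0867 in pRb-null. Ribosomal protein genes have many processed copies, so their probe sets can be ambiguous. The count was 7 without control replicate 2 and 7 without either double-null array.

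Dermal matrix genes were divided. Of 57 probe sets 5 scored higher (8.77%, background 6.38%) and 8 lower (14.0%, background 4.22%), with a median of −0.27. Eln, elastin, scored 1.45 and 1.60 in control and −0.22 and −0.24 in pRb-null (−1.76 ± 0.19) on 1 probe set and differed by 1.07 ± 0.52 on the other. Fbn2, a fibrillin of the elastic microfibrils of young skin, differed by −1.29 ± 0.22 and Col14a1, a fibril-associated collagen, by −2.21 ± 0.44 and −0.01 ± 0.62. Lum, the proteoglycan lumican, went the other way, with −1.21 and −1.66 against −0.09 and −0.22 (1.28 ± 0.24). The counts were 2 higher without control replicate 1, 1 higher without pRb-null replicate 1, 5 lower without control replicate 2, and 3 higher and 11 lower without either double-null array.

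Cartilage and bone genes had 5 of 22 probe sets that scored lower (22.7%, background 4.22%) and 0 higher, among them Acan, the cartilage proteoglycan (−1.07 ± 0.21), and Col2a1 (−1.80 ± 0.44). Without pRb-null replicate 1 that count was 2, and it was 3 without control replicate 1 or either p53-null array. In the immune lists 2 of 39 macrophage and myeloid probe sets scored higher and 2 lower (5.13% each, background 6.38% and 4.22%). Of 15 mast cell probe sets 0 scored higher and 1 lower (6.67%, background 4.22%). Of 20 lymphocyte probe sets 0 scored higher and 2 lower (background 4.22%). Of 51 interferon response probe sets 4 scored higher (7.84%, background 6.38%) and 3 lower (5.88%, background 4.22%). Of 24 nerve and Schwann cell probe sets 3 scored higher (12.5%, background 6.38%) and 5 lower (20.8%, background 4.22%). These counts were 0 and 2 without control replicate 2, 2 and 2 without pRb-null replicate 2 and 0 and 4 without either p53-null array. Of 25 melanocyte probe sets 4 scored higher (background 6.38%) and 0 lower (background 4.22%). Of 25 endothelial and blood probe sets 3 scored higher (12.0%, background 6.38%) and 2 lower (8.0%, background 4.22%). Of 132 probe sets of oxidative phosphorylation 4 scored higher (3.03%, background 6.38%) and 3 lower (2.27%, background 4.22%). These small counts moved with single arrays, as in melanocyte genes, where 1 scored higher without pRb-null replicate 1 and 6 without either double-null array.

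**Figure D4:**
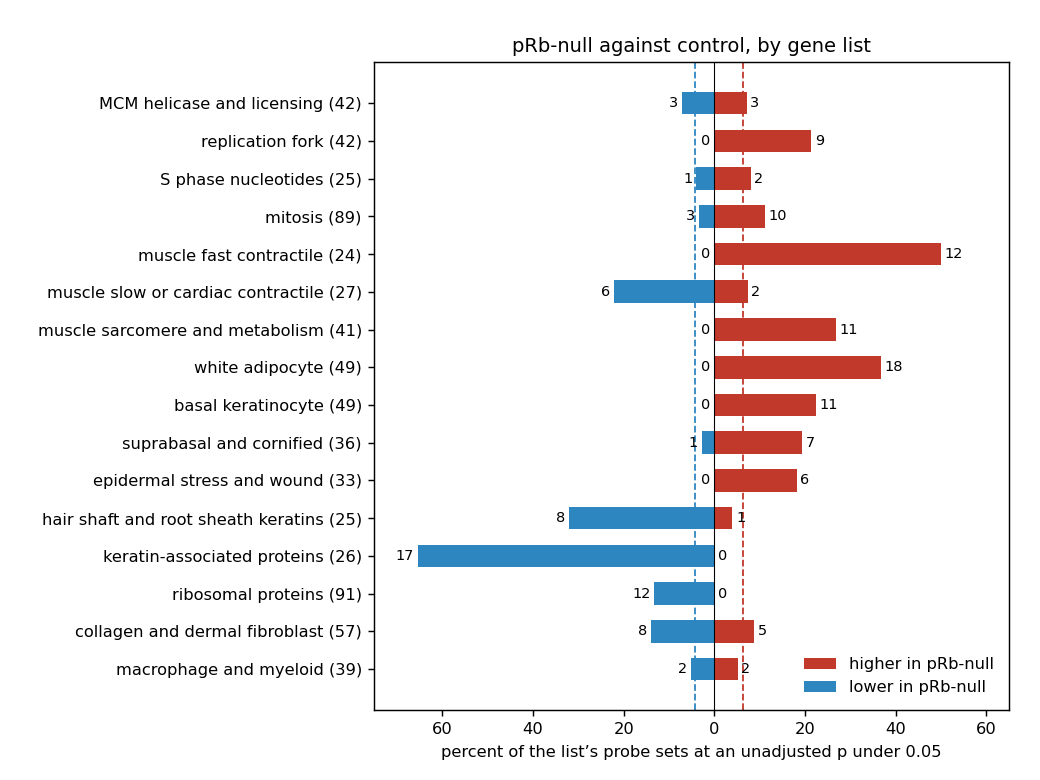
Percent of each list's probe sets that scored higher (red, to the right) or lower (blue, to the left) in pRb-null at an unadjusted p under 0.05, with counts beside the bars and dashed lines at the shares of all 22626 probe sets (6.38% and 4.22%). Fast muscle (12 of 24) and white adipocyte genes (18 of 49) reach farthest to the right and keratin-associated proteins (17 of 26) farthest to the left.

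The single probe sets with the smallest p belonged to varied genes. Usp19, a deubiquitinase of the endoplasmic reticulum, scored 1.10 and 1.19 in control and −1.38 and −1.54 in pRb-null, while the other 4 arrays lay between 0.11 and 0.21 (−2.61 ± 0.07, adjusted p = 0.0626). Its other 2 probe sets differed by −0.25 ± 1.03 and 0.06 ± 0.75. Ptprf, a receptor tyrosine phosphatase of cell junctions, scored −1.61 and −1.36 against 1.09 and 1.09 (2.58 ± 0.09, adjusted p = 0.0626), with 2.34 ± 0.51 and −0.53 ± 0.31 on 2 further probe sets. Ints6l scored 1.60 and 1.56 in control and −0.20 and −0.22 in pRb-null, and −0.77 to −0.56 elsewhere (−1.79 ± 0.07, adjusted p = 0.0626).

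With 1 probe set per gene, and so fewer tests, the probe sets of Ptprf, Ints6l and Tnnc1 were called at the adjusted threshold. Rbbp4, a histone-binding protein first described as a partner of pRb, scored −1.42 and −1.67 in control and 0.86 and 0.75 in pRb-null (2.35 ± 0.11, adjusted p = 0.0711), with 2.22 ± 0.61 and −1.09 ± 0.32 on its other probe sets. Dnajb1, a heat-shock co-chaperone, differed by 2.36 ± 0.11 and −0.50 ± 0.44 on its 2 probe sets. Fscn1, an actin-bundling protein, differed by 1.95 ± 0.09 on 1 probe set, by −1.48 ± 0.44 on a second that scored lower, and by −0.74 ± 0.39 and 1.60 ± 0.90 on the rest. Sephs2, which makes the selenium donor for selenoproteins, scored 1.08 and 1.38 against −1.44 and −1.34 (−2.62 ± 0.16), with −0.23 ± 0.26 and −0.69 ± 0.86 on its other probe sets. Kpna6, a nuclear import receptor, scored 0.71 and 0.47 against −1.61 and −1.61 (−2.20 ± 0.15), with 0.57 ± 1.16 on its second probe set.

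A few genes gave the same direction on every probe set. Of 4956 genes with at least 2 probe sets, 20 scored higher on all of them and 7 lower on all. Il6st, the shared receptor subunit gp130 of the interleukin-6 family, had 3 probe sets with 2.12 ± 0.47, 2.44 ± 0.49 and 2.11 ± 0.16. Hoxc6, a positional homeobox gene, had 3 with 2.17 ± 0.56, 2.21 ± 0.40 and 1.51 ± 0.33, and its scores were the highest of the 8 arrays in pRb-null. Rarg, the main retinoic acid receptor of epidermis, had 0.98 ± 0.23 and 2.30 ± 0.45. Hsd17b12, an enzyme of very long chain fatty acid synthesis, had 2.43 ± 0.42 and 1.92 ± 0.40, and Tecr, which acts in the same elongation cycle, 1.43 ± 0.38 and 1.26 ± 0.34. Nrip1, a corepressor of nuclear receptors, had 2.39 ± 0.54 and 2.40 ± 0.48. Of the genes lower on all their probe sets, Calr, the calcium-binding chaperone calreticulin, had −1.97 ± 0.62, −2.58 ± 0.28 and −1.80 ± 0.55. Pdgfc, a platelet-derived growth factor, had −1.49 ± 0.25 and −1.71 ± 0.59, and the keratin-associated protein Krtap12-1 −2.19 ± 0.58 and −1.68 ± 0.28.

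Where the 2 pRb-null arrays stood among all 8 differed from gene to gene. Of the 1443 probe sets that scored higher, 727 (50.4%) had the control arrays as the lowest 2 of the 8, and 671 (46.5%) had the pRb-null arrays as the highest 2. Over all probe sets these shares were 6.94% and 7.65%. Of the 955 that scored lower, 442 (46.3%) had the control arrays highest and 438 (45.9%) the pRb-null arrays lowest. The shares over all probe sets were 5.71% and 5.45% for these positions. Both sets were selected for a difference between pRb-null and control, which by itself raises such shares. The comparison with all probe sets therefore cannot show a preferred position, and no conclusion is drawn from it.

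The same loss of pRb can be read on a second pair of genotypes, as the difference between double-null and p53-null. It shares no array with the first difference, although both use 1 estimate of the spread and scores standardized together. Of 22626 probe sets, 8 were called there (0.0354%), while 1354 scored higher (5.98%) and 1340 lower (5.92%) by the unadjusted threshold. The difference between the 2 effects of pRb loss, tested as an interaction, was called for 0 probe sets (0.0%), with 1012 above (4.47%) and 1352 below 0 (5.98%) at an unadjusted p under 0.05. The moderated test also called 0, which again gives no support.

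The probe sets that scored lower or higher against control were followed into this second pair. Of the 955 that scored lower against control, 34.7% had a difference above 0 where p53 was absent, while 23.6% scored lower there (background 5.92%) and 9.01% higher (background 5.98%). Of the 1443 that scored higher, 47.8% had a difference above 0, against 51.0% of all probe sets, while 14.8% scored higher there and 11.3% lower. These shares are descriptions and were not tested.

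The medians of the adipocyte, hair and ribosomal protein lists, among others, had the same sign in both pairs. So did the slow troponin genes Tnnc1 and Tnni1, while the medians of the fork and mitosis lists had opposite signs. The adipocyte median was 1.94 where p53 was absent, with 30 of 49 probe sets higher (background 5.98%) and 0 lower (background 5.92%). Tnnc1 differed by −1.77 ± 0.05 there, Tnni1 by −1.47 ± 0.16 and Myh3, of the embryonic list, by −2.09 ± 0.17. The replication fork median was −0.26 there, with 1 of 42 higher and 3 lower, counts near that background. The mitosis median was −0.88, with 0 of 89 higher (background 5.98%) and 21 lower (background 5.92%). For Rfc1 the difference was −1.14 ± 0.19 in the absence of p53, and the interaction of −3.49 ± 0.27 had an unadjusted p of 0.000218 (adjusted p = 0.15). Of the 89 mitosis probe sets, 23 had an interaction below 0 at an unadjusted p under 0.05 (background 5.98%) and 1 above 0 (background 4.47%). Fast muscle genes had a median of 0.19 where p53 was absent. Hair shaft and root sheath keratins had one of −0.91 there, with 17 of 25 probe sets lower (background 5.92%) and 0 higher. For ribosomal proteins it was −0.88, with 19 of 91 lower and 0 higher. Keratin-associated proteins had a median of −0.17, and 11 of 26 had an interaction above 0 at an unadjusted p under 0.05 (background 4.47%).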

How the data were processed

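Pooled whole-skin RNA was measured on 8 arrays, 2 for each of 4 genotypes, which were 1-colour arrays of 22690 probe sets. Per the submitters' processing notes the authors used RMA, with no version given, and the deposited values are scores, each row centred to mean 0 and scaled to SD 1 (within 1e-06). Whether logarithms were taken first is unknown here. Scores carry no level and no signal over background, and the number of arrays limits the precision.

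After removal of 64 control probe sets, 22626 entered a linear model (limma 3.58.1, R 4.3.3). The model had 1 mean per genotype over all 8 arrays and 4 residual degrees of freedom, without variance moderation, which was an alternative. Benjamini-Hochberg adjustment ran over all 22626 probe sets, with calls at 0.05. The fit was tested on simulated data. Of the probe sets, 20393 had 1 gene symbol on the platform annotation, 691 several and 1606 none, and 20364 of the former matched RefSeq GRCm38.p6. Promoters came from RefSeq GRCm38.p6, from 250 bases before to 50 after each start.

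Genes named were Rb1, Rbl1 and Rbl2, the 10 probe sets of smallest p in each direction, up to 15 genes with all of at least 2 probe sets in 1 direction, up to 6 probe sets per list, and any member of the pocket protein, E2F, licensing, fork and muscle lists. The members and the 40 lists were chosen with earlier results of these data known. Alternatives were other scalings, 1 probe set per gene, only the 4 arrays compared, the replicate number as a block and each array left out. Trp53 was not analysed here.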

Additional observations from a re-analysis of the deposited data

Results flagged for a closer look

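The mean score of the 16 mouse control probe sets, which no comparison used, was 1.67 higher on the pRb-null arrays than on the control arrays. The 3' and 5' Gapdh probe sets differed by 2.57 ± 0.31 and 2.33 ± 0.26, and those of beta-actin by 1.05 ± 1.19 and 2.54 ± 0.29.

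For 9 lists, both arrays of each pair moved one way with pRb loss where p53 was present and the opposite way where it was absent, as median scores on the arrays. The values below are the difference without p53 minus the difference with it, and this difference of the list medians was not tested. It was −1.55 for G1 cyclins and kinases, which include Ccnd2. Among the lists of DNA synthesis and division it was −1.15 for the replication fork, −0.98 for S phase nucleotides and −1.30 for mitosis. For basal keratinocyte genes it was −1.08, and for melanocyte genes −1.61. For slow or cardiac contractile genes it was −1.01 and for embryonic muscle genes and regulators −1.13. Macrophage and myeloid genes went the other way, at 1.32, with array medians of −0.415 and −0.294 in control, −0.576 and −0.496 in pRb-null, −0.269 and −0.188 in p53-null and 1.10 and 0.723 in double-null.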

How the results depend on the processing

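With 1 probe set per gene, 1 probe set was called higher and 2 lower, and 654 and 503 were below the unadjusted threshold, since fewer were tested. With the mouse control probe sets subtracted, 336 were called lower, 36 scored higher and 6552 lower, and 2 interactions were called. With single arrays left out, called higher ranged from 0 to 1, called lower was 0, and interactions called ranged from 0 to 1. Those below the unadjusted threshold ranged from 931 (without pRb-null replicate 1) to 1675 higher and from 705 to 1164 lower. Only the 4 arrays compared gave 0 called, with 1065 higher and 682 lower. Signs turned for 4 named probe sets, all without a call: after quantile normalization the difference of 1 Rbl2 set was 0.062, and with single arrays left out it ranged from −1.38 to 1.07. The other Rbl2 set ranged from −1.05 to 0.20, with 0.06 without pRb-null replicate 2, the second Rbl1 set from −1.21 to 0.27 and the second E2f1 set from −1.21 to 0.64. The cause was not tested. The other 1982 values of named probe sets under an alternative kept their sign, for the scalings relative to the shift of all probe sets. With the replicate number as a block, 0 were called, 1279 scored higher and 877 lower, and 0 interactions were called. Deviations of same-numbered control and pRb-null arrays had r = −0.0833 (−0.163 to 0.197 in the other pairs of groups). With 1 deviation per group, these values cannot decide whether same-numbered arrays were paired. With the last 7 letters of the octamer, 2936 of all 27025 genes and 26 of the 40 licensing and fork genes held a match. Scores give no signal over background, so weakly expressed genes could not be set apart.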
